A study of Mus musculus with 15 samples.

Results

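The epithelium of the jejunum of peanut-sensitized mice 120 min after an oral peanut challenge was compared with that of mice that had received phosphate-buffered saline (PBS) and were never given peanut. The comparison rests on 6 of the 15 libraries of the study, 3 from each group, chosen by the treatment and time in their labels. All mice were of the Collaborative Cross inbred strain CC027/GeniUnc; the labels used here give no age or sex. The 120 min group received 2 mg of crude peanut extract by gavage weekly for 3 weeks, 5 mg in week 4 and, as the challenge, 12 mg by gavage 120 min before tissue was taken. The PBS group received PBS at the sensitizing doses and no challenge. Both groups went through the same isolation, in which jejunum was kept in EDTA and DTT and the epithelium was shaken loose. The other groups of 3 were sensitized mice without challenge (the sensitized controls) and sensitized mice taken 30 or 60 min after challenge. Sensitization, challenge, the gavage itself and the nutrients in the extract cannot be told apart in the comparison of 120 min with PBS mice, and a group given a sham challenge was not analysed here. The numbers in the titles differ between libraries, so replicate numbers here only name libraries. The p-values set a difference between groups against the spread between samples within groups, estimated over all 15 libraries.

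The jejunal epithelium is a single layer of absorptive enterocytes with scattered goblet, Paneth, tuft and enteroendocrine cells, all renewed from crypt stem cells, and intraepithelial lymphocytes sit between them. Enterocytes take up dietary lipid, make cholesterol themselves and return bile acids to the blood. Cholesterol synthesis is set by SREBP2, a transcription factor that is held in the endoplasmic reticulum by INSIG proteins when sterols are plentiful and released to the nucleus when they are scarce. Its best known targets are enzymes of the mevalonate and post-squalene steps. Bile acids act on the nuclear receptor FXR, which controls their transport. In food allergy the epithelium is also known as a source of alarmins such as IL-33, and mucosal mast cells release proteases such as MCPT1.

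Reads were polyadenylated RNA sequenced as pairs of 151 bases. Total estimated counts were 19396092, 17832915 and 17764608 in the PBS libraries and 21146527, 18768703 and 22215649 in the 120 min libraries. Mitochondrially encoded genes held 15.5% to 25.5% of gene counts in the PBS libraries and 13.8% to 16.6% at 120 min. Epithelial markers were abundant in all 6 libraries: the adhesion molecule Epcam was at 1211 to 1295 CPM (the count of a gene relative to a common library total) in PBS mice and at 1258 to 1416 CPM at 120 min. The members of the stromal list, of which 9 of 15 were high enough to be tested, summed to 25.6 to 27.6 CPM in PBS mice and 12.7 to 21.3 CPM at 120 min. Immunoglobulin genes held 0.118% to 0.369% of the counts in PBS mice and 0.0186% to 0.064% at 120 min.

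Of 14968 genes tested, 109 rose and 67 fell at 120 min, at an adjusted p under 0.05 in edgeR's quasi-likelihood test with all 15 libraries in 1 fit. These are 1.18% of the genes tested, 0.728% for rises and 0.448% for falls. An unadjusted p under 0.05 in the same test was seen for 2819 of the 14968 genes, the background for such counts in the lists below. The 3 libraries of each group did not overlap for any of the 176, a pattern seen in 26.2% of all genes tested. Among the 176 the median log2 fold change was 0.76 for rises and −0.997 for falls, and 21 rises and 32 falls were of 2-fold or more. Of the 50 gene lists, sterol synthesis held 6 rises among 19 tested members, and the plasma and B cell list held 2 falls among 16. With upper quartile scaling the split was 71 higher and 125 lower, and the median of all genes moved from 0.00 to −0.07; with only the 6 libraries in the fit it was 93 higher and 155 lower. The number of calls depended on single libraries: it was 5 without PBS replicate 1, 96 without PBS replicate 2, 5 without PBS replicate 3, 8 without 120 min replicate 1, 116 without 120 min replicate 2 and 27 without 120 min replicate 3. All 176 genes kept their direction in each of the fits with a library left out. Of 45 passing genes named here, Fam214a, Pgap1 and the heavy chain segment Ighv4-1 passed in all 6 of these, 16 passed in none of them.

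**Figure D1:**
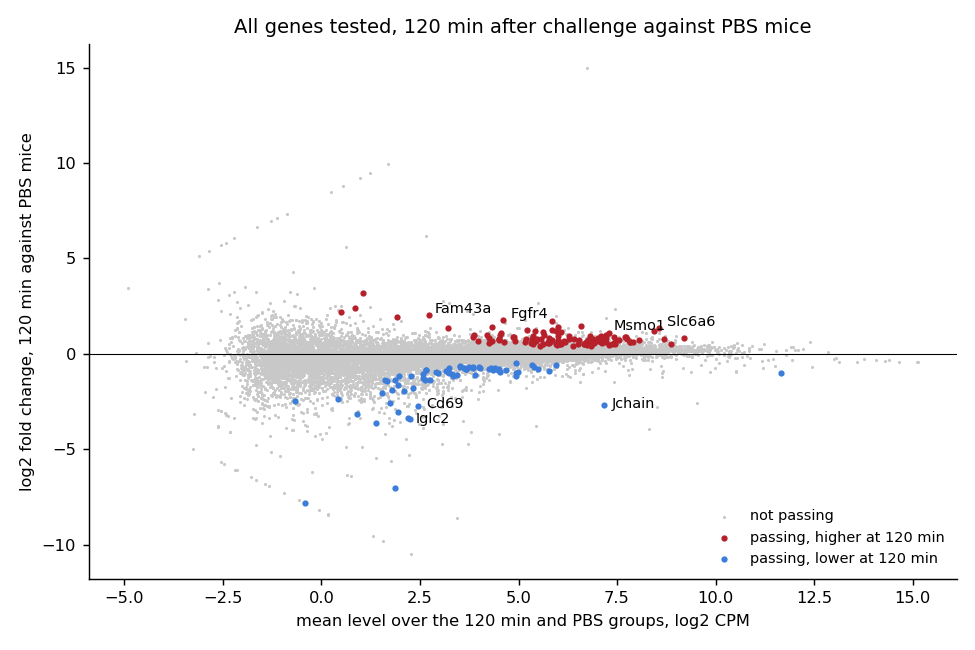
The log2 fold change of each gene tested (120 min against PBS mice, y axis) is plotted against its mean level over the 2 groups (log2 CPM, x axis); red and blue points passed the test, and genes with no counts in these groups are not drawn. The 109 rises have a median log2 fold change of 0.76, against −0.997 for the 67 falls, whose largest named changes are those of leukocyte genes such as Cd69 and Jchain.

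In the plasma and B cell list 2 of 16 tested genes fell at 120 min, and in the T cell list 1 of 20, where 0.448% of all genes fell. Jchain, which joins the chains of secreted IgA and is made by plasma cells, was at 329, 337 and 83.7 CPM in the PBS mice and at 50.5, 48.2 and 19.6 CPM at 120 min. It fell by 2.66 on the log2 scale (SE 0.53, edgeR adjusted p = 0.043), and by 2.35 to 3.09 with 1 of the 6 libraries left out. PBS replicate 3 was the lowest of the PBS mice and still above every 120 min library. The light chain gene Iglc2 was at 12.8, 11 and 1.29 CPM in PBS mice and at 0.612, 1.12 and 0.721 CPM at 120 min. It fell by 3.35 on the log2 scale (SE 0.74, adjusted p = 0.048), with PBS replicate 3 only just above the highest 120 min library. In the list of plasma and B cell genes all 16 tested members had negative log2 fold changes, with a median of −2.12 beside 0.00 for all genes, and these 2 passed. The groups did not overlap for 15 of the 16, as for 26.2% of all genes. The median was 0.17 with the mean level of leukocyte genes, which these genes enter, added to the fit. The constant regions Igha (1667, 1627 and 516 CPM against 302, 248.9 and 80.6 CPM) and Igkc (785, 924 and 219 CPM against 115, 127 and 35.1 CPM), picked after their values were seen, did not pass, with adjusted p of 0.060 and 0.067. Of the 6 immunoglobulin segments that passed, all fell. How many such segments were tested was not counted, so their share cannot be set beside the 0.448% of all genes that fell.

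Cd69, an activation and residency marker of lymphocytes, was at 8.75, 14.5 and 5.21 CPM in PBS mice and at 1.88, 1.07 and 1.35 CPM at 120 min. It fell by 2.71 on the log2 scale (SE 0.52, edgeR adjusted p = 0.029), with no overlap between the groups, and by 2.27 to 3.02 with 1 library left out. All 20 tested genes of T cells and intraepithelial lymphocytes had negative values, with a median of −1.91, and 19 did not overlap (26.2% of all genes), but Cd69 was the member that passed (0.448% of all genes fell). Among the others, the T cell receptor subunit Cd3e was at 10.5, 10.6 and 10.3 CPM in PBS mice and at 4.94, 4.05 and 2.61 CPM at 120 min (−1.43, SE 0.53, adjusted p = 0.17). The co-receptor Cd8a was at 26.1, 26.0 and 24.6 CPM against 10.5, 6.56 and 2.43 CPM (−1.98, SE 0.72, adjusted p = 0.17). Both were picked after their values were seen, and both were lowest in 120 min replicate 3. Further genes with known lymphocyte expression were among the largest falls: the receptor Cd244a of natural killer and T cells (−2.04, SE 0.47), the lymphocyte GTPase Gimap8 (−1.87, SE 0.41), the sialyltransferase St6gal1 (−1.94, SE 0.41) and the adhesion regulator Rassf5 (−1.37, SE 0.31). The Rab5 exchange factor Rinl was at 6.84, 4.25 and 5.99 CPM in PBS mice and at 1.37, 0.693 and 0.811 CPM at 120 min (−2.56, SE 0.48, adjusted p = 0.026). In macrophage and dendritic cell genes 15 of 16 values were negative, with a median of −0.98. In edgeR 0 passed and 6 had an unadjusted p under 0.05, as did 2819 of all 14968 genes. The median of these macrophage and dendritic cell genes was 0.31 with the leukocyte level in the fit. Their leading members were the chemokine receptor Cx3cr1 (−3.47, SE 0.89, adjusted p = 0.066), the lectin Clec10a (−2.33, SE 0.65) and the lysosomal protein Cd68 (−1.34, SE 0.39). In bulk RNA, fewer cells of a type and less RNA per cell cannot be told apart.

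Over the 52 tested members of the T cell, plasma and B cell, and macrophage lists, the mean log2 CPM was 3.05, 2.87 and 2.43 in the PBS libraries and 1.55, 1.36 and 0.48 at 120 min, so the groups did not overlap. It was 2.01, 1.71 and 3.06 in the sensitized controls, 3.21, 1.18 and 2.89 at 30 min and 1.70, 1.70 and 2.65 at 60 min. Library 120 min replicate 3 had the lowest level of the 15. This leukocyte level moved with the comparison, so its part in the change of a gene and that of the groups cannot be told apart. It was added to the fit as an alternative chosen after seeing the data. With that covariate edgeR called 0 genes (1427 with an unadjusted p under 0.05), and all 176 kept their direction. The median ratio of their fold change to that without the covariate was 0.87 (0.38 to 1.36). Members of the 3 lists, such as Cd69 and Jchain, are part of that level, so a smaller change for them under the covariate is built in. Among genes outside the lists, St6gal1 then was −0.74 and Gimap8 −0.78, with ratios of 0.38 (the lowest of the 176) and 0.42. Among sterol synthesis genes Msmo1 was 0.905 in place of 0.97, a ratio of 0.93. The ratio was 1.02 for Sqle, 0.82 for Fdft1, 0.77 for Cyp51 and 0.69 for Lss, and it was 0.65 for Fgfr4. Pgap1 was 1.27 in place of 1.24. The SE of Pgap1 was 0.20 in place of 0.15, and Pgap1 did not pass (edgeR adjusted p = 0.062).

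**Figure D2:**
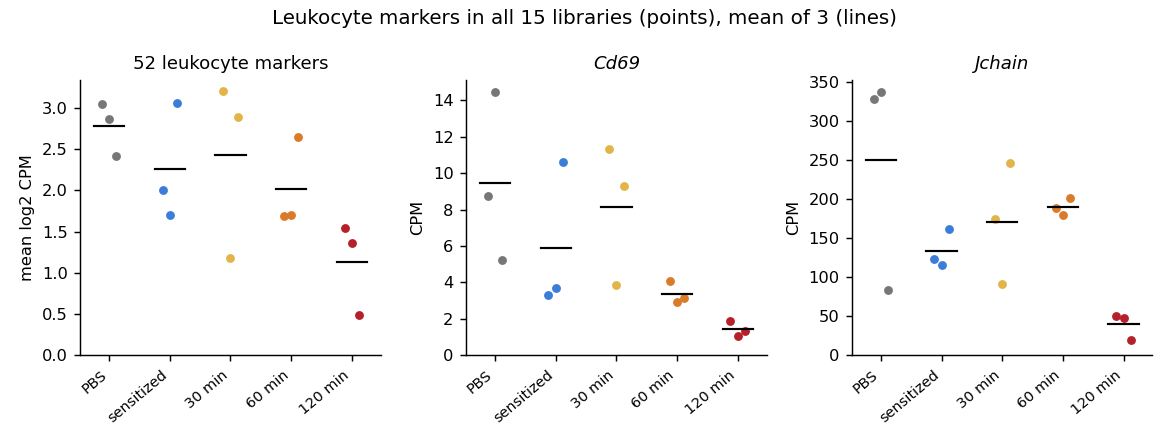
The mean log2 CPM of 52 leukocyte markers (left) and the CPM of Cd69 and Jchain (middle and right) are shown for each of the 15 libraries by group, with lines at the mean of 3. The 120 min libraries are below all PBS libraries in each panel, and the lowest marker level of the other groups, 1.18, is that of a 30 min library.

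Of the cholesterol synthesis genes, 6 rose at 120 min against PBS mice. The list held 19 tested genes, and all 19 had positive log2 fold changes, from 0.11 to 0.97 with a median of 0.68 beside 0.00 for all genes. Of these, 6 rose (31.6% of the list, where 0.728% of all genes rose) and 0 fell. The groups did not overlap for 11 of the 19, and for 26.2% of all genes. Of the 6, Fdft1, Sqle, Lss, Cyp51 and Msmo1 are described here, which act from squalene synthesis onward. The median was 0.46 without 120 min replicate 3, which had the highest Fdft1, Sqle, Lss, Cyp51 and Msmo1 and the lowest leukocyte level, and 0.40 with the leukocyte level in the fit.

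The promoters of 3 of these 5 genes had an entry in the RefSeq promoter table of GRCm38.p6. They are shown because, of the lists searched for motifs, this one had the largest share of members past the threshold (31.6%). The CCAAT box, the binding site of NF-Y, is a known partner element of SREBP sites. The 250 bases before the RefSeq start site are printed 5′ to 3′, with CCAAT, or its complement ATTGG, in capitals. The Msmo1 window lies at chr8:64733579-64733828 and the Cyp51 window at chr5:4104698-4104947, both on the minus strand, and the Lss window at chr10:76531355-76531604 on the plus strand. The GENCODE M21 genes used for the counts begin inside these windows, at 64733792 for Msmo1, 4104746 for Cyp51 and 76531588 for Lss. Part of each window, and most of that of Msmo1, therefore lies within the counted gene.
Msmo1: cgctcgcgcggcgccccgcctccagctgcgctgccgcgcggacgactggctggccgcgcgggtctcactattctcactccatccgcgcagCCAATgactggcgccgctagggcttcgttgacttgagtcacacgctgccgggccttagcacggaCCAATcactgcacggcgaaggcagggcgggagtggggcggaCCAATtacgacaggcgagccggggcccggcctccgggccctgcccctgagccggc
Cyp51: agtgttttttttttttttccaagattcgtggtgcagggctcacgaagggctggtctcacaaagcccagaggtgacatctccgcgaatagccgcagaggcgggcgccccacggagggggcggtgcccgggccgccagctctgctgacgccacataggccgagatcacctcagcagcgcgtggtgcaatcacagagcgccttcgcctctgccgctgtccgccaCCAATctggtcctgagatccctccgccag
Lss: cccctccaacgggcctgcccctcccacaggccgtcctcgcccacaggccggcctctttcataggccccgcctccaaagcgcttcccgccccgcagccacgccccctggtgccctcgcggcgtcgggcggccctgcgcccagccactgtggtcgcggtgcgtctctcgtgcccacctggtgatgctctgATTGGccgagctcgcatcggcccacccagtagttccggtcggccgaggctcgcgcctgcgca
CCAAT was found on either strand 3 times in the Msmo1 window and once each in the others. Over the window from 250 bases before to 50 after the start, 13 of the 14 tested sterol genes with an entry held CCAAT (92.9%, Acat2 being the exception), and 41.1% of 27025 genes with an entry did. The share was also above that of all genes in the 4 other lists searched, with 76.5% for clock genes, 63.6% for the regulators and transporters of cholesterol, 58.3% for heat shock genes and 53.8% for glucocorticoid-responsive genes. These windows are rich in G and C (62.8% to 73.6% in the 3 printed), and motif counts were not matched for base composition. The sterol regulatory element TCACCCCAC was in 0 of the 14 and in 0.614% of all genes, on either strand. It was also in 0 of the 11 regulators and transporters of cholesterol with an entry. Only this exact string was searched, so sites that differ from it by a base were not counted. A match of letters is a description and no test of binding.

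Msmo1, a methylsterol oxidase (ENSMUSG00000031604.10), was at 90.9, 126 and 85.3 CPM in PBS mice and at 195, 184 and 213 CPM at 120 min, a rise of 0.97 on the log2 scale (SE 0.15, edgeR adjusted p = 0.016). Cyp51, which demethylates lanosterol, was at 113, 115 and 89.7 CPM against 172, 168 and 229 CPM, and rose by 0.84 (SE 0.14, adjusted p = 0.016). Every 120 min library was above every PBS library for both genes, and PBS replicate 2 was the highest of its group for each.

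Fdft1, squalene synthase, was at 90.8, 100 and 75.0 CPM in PBS mice and at 139, 148 and 164 CPM at 120 min, and rose by 0.76 (SE 0.13, edgeR adjusted p = 0.016). Lss, lanosterol synthase, was at 43.2, 51.8 and 35.6 CPM against 82.8, 68.4 and 101 CPM, and rose by 0.95 (SE 0.17, adjusted p = 0.025). Sqle, the epoxidase between these steps, was at 92.5, 116 and 71.3 CPM against 167, 145 and 190 CPM, and rose by 0.84 (SE 0.17, adjusted p = 0.029). Each of the 3 was lowest in PBS replicate 3. With 1 library left out the changes were 0.64 to 0.86 for Fdft1, 0.79 to 1.10 for Lss and 0.67 to 1.03 for Sqle, and each was called in 2 of the 6 fits, those without PBS replicate 2 and without 120 min replicate 2. Further enzymes, picked after their values were seen, did not pass: Hsd17b7 (0.68, SE 0.17, adjusted p = 0.057) and Idi1 (0.73, SE 0.19, 0.065).

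The regulators and transporters of cholesterol were less uniform, with 10 positive and 5 negative values in 15 and a median of 0.10. There were 3 rises (20%, where 0.728% of all genes rose). Of the 3, Insig1, the sterol-dependent anchor of SREBP in the endoplasmic reticulum, is described here: it was at 126, 134 and 106 CPM in PBS mice against 212, 232 and 218 CPM at 120 min, and rose by 0.86 (SE 0.18, edgeR adjusted p = 0.037). Srebf2 itself had a change of 0.45 (SE 0.12, adjusted p = 0.078). Soat1, which esterifies cholesterol for storage and is outside this list, fell by 0.80 (SE 0.18, adjusted p = 0.048). Both were picked after their values were seen.

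**Figure D3:**
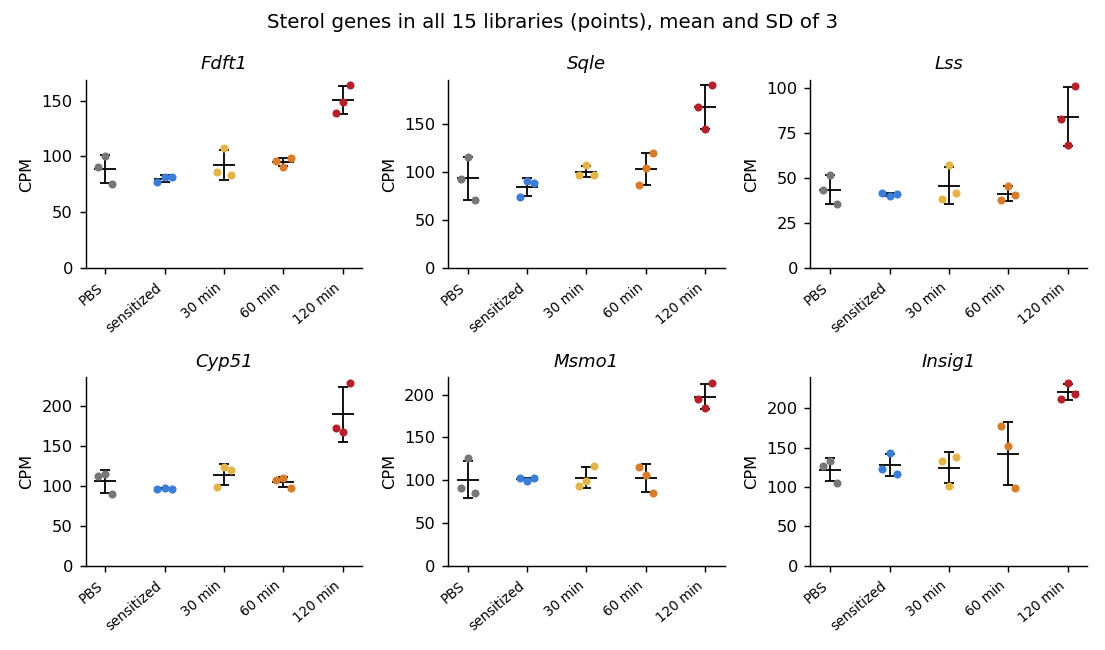
CPM of 5 enzymes of cholesterol synthesis and of Insig1 is shown for each of the 15 libraries by group, with bars at the mean and SD of 3 and axes that start at 0. The 120 min libraries are above the PBS libraries in all 6 panels.

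The sensitized controls and the 60 min mice place these changes in the course of the study; they share libraries with the main comparison, so their values stand side by side and are not independent. No gene passed between sensitized controls and PBS mice in edgeR (0% of genes; 212 with an unadjusted p under 0.05, 0 called by limma-voom and 7 by DESeq2). Against the sensitized controls 188 genes passed at 120 min (1.26%), and 168 passed between 120 and 60 min (1.12%). For sensitized controls against PBS mice, Msmo1 was 0.01 (SE 0.15), Cyp51 −0.13 (SE 0.14) and Lss −0.08 (SE 0.17). For 120 min against the sensitized controls, the same genes were 0.96, 0.97 and 1.04, all with an adjusted p under the threshold (0.015, 0.0069 and 0.017). From 60 to 120 min, Msmo1 rose by 0.95 (SE 0.15, adjusted p = 0.019), Cyp51 by 0.85 (SE 0.14, 0.019) and Lss by 1.03 (SE 0.18, 0.021). Single libraries set how many genes pass in these contrasts too: 120 min against sensitized controls gave 7 to 240 and 120 against 60 min gave 0 to 1151 calls with 1 library left out. The count for 120 against 60 min was 1151 without 60 min replicate 1, 2 without 60 min replicate 2 or 3, 0 without 120 min replicate 1 or 3 and 298 without 120 min replicate 2. Against the sensitized controls it was 12, 16 and 7 without their replicates 1, 2 and 3, and 12 and 13 without 120 min replicates 1 and 3.

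Of 8 bile acid genes tested, 7 had positive values, with a median of 0.95, and 2 rose (25%, where 0.728% of all genes rose). Nr1h4, which encodes FXR (chr10:89454234-89533585), was at 67.0, 91.1 and 75.5 CPM in PBS mice and at 152, 137 and 149 CPM at 120 min, a rise of 0.91 (SE 0.16, edgeR adjusted p = 0.023). Slc51b, a subunit of the exporter that passes bile acids to the blood, was at 28.5, 31.9 and 32 CPM against 85.8, 59.4 and 57.4 CPM, and rose by 1.13 (SE 0.24, adjusted p = 0.036). For both the 120 min libraries were all above the PBS libraries, and the sensitized controls (0.05 and 0.02 against PBS mice) were near the PBS level. Between 60 and 120 min Nr1h4 rose by 0.87 (SE 0.16, adjusted p = 0.025) and Slc51b by 1.49 (SE 0.24, adjusted p = 0.019). Of the members that did not pass, picked after their values were seen, the apical importer Slc10a2 was at 8.42, 21.4 and 7.85 CPM against 108, 45.8 and 80.4 CPM (2.64, SE 0.57, adjusted p = 0.053). The partner subunit Slc51a was 0.61 (SE 0.16, adjusted p = 0.071). The cytosolic carrier Fabp6 was at 80.9, 58.4 and 60.0 CPM against 206, 98.3 and 92.6 CPM (0.99, SE 0.40, adjusted p = 0.22). The hormone Fgf15, an FXR target of the ileum, was at 5.05, 14.0 and 30.0 CPM against 66.7, 73.9 and 26.8 CPM (1.77, SE 0.64, adjusted p = 0.17), and its groups overlapped. Fgfr4, best known as the receptor of that hormone in the liver, was at 7.71, 12.5 and 13.2 CPM in PBS mice and at 40.4, 29.8 and 42.4 CPM at 120 min. It rose by 1.75 (SE 0.31, adjusted p = 0.023), and by 1.14 (adjusted p = 0.31) with the leukocyte level in the fit.

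Among osmotic response genes 2 of 7 rose, where 0.728% of all genes did. Slc6a6, the taurine transporter, was at 164, 279 and 188 CPM in PBS mice and at 660, 433 and 544 CPM at 120 min, a rise of 1.38 (SE 0.22, edgeR adjusted p = 0.016). Its regulator Nfat5, a transcription factor that responds to osmotic stress, was at 42.6, 42.2 and 45.4 CPM against 70.0, 72.8 and 60.9 CPM, and rose by 0.65 (SE 0.11, adjusted p = 0.021). Nfat5 was already at 57.3, 66.5 and 68.9 CPM at 60 min, where Slc6a6 was at 217, 306 and 233 CPM: from 60 to 120 min Nfat5 differed by 0.08 (SE 0.11, adjusted p = 0.73) and Slc6a6 rose by 1.11 (SE 0.22, adjusted p = 0.030). The median of the list was 0.52 and was 0.22 without 120 min replicate 2. Aqp4, a water channel, was at 23.8, 39.0 and 40.6 CPM in PBS mice and at 71.3, 64.0 and 108 CPM at 120 min (a rise of 1.24, SE 0.26, adjusted p = 0.037). In the sensitized controls Aqp4 was at 62.0, 66.6 and 43.9 CPM, above every PBS library (0.74, SE 0.26, adjusted p = 1), and at 120 min against them it was 0.50 (SE 0.25, adjusted p = 0.33).

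Genes known to respond to glucocorticoids had 13 positive values in 16 and a median of 0.75, with 1 rise (0.728% of all genes rose). Cdkn1a, a cell cycle inhibitor, was at 142, 137 and 145 CPM in PBS mice and at 219, 284 and 200 CPM at 120 min, and rose by 0.73 (SE 0.16, edgeR adjusted p = 0.044). The others did not pass, and some varied widely within groups. Fkbp5, a co-chaperone of steroid receptors, was at 23.3, 117 and 32.6 CPM against 381, 122 and 378 CPM (2.35, SE 0.71, adjusted p = 0.12), and the kinase Sgk1 at 30.9, 93.5 and 64.2 CPM against 332, 143 and 225 CPM (1.89, SE 0.51, adjusted p = 0.089). PBS replicate 2 was the highest PBS library and 120 min replicate 2 the lowest 120 min library for both, which were picked after their values were seen, as were Klf9 (0.68, SE 0.18, adjusted p = 0.074), Errfi1 (0.77, SE 0.20, 0.067) and the metallothionein Mt2 (1.60, SE 0.50, 0.13). The median of the list was 0.46 with the leukocyte level in the fit.

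Ereg, an EGF receptor ligand, was at 13.4, 33.9 and 32.7 CPM in PBS mice and at 93.4, 114 and 57.2 CPM at 120 min, a rise of 1.73 (SE 0.33, edgeR adjusted p = 0.030). Angptl4, a lipoprotein lipase inhibitor and PPAR target, was at 29.9, 25.6 and 49.6 CPM against 123, 54.3 and 104 CPM, and rose by 1.42 (SE 0.31, adjusted p = 0.046). It was the only one of 18 genes of the list of PPARα targets and fatty acid oxidation that passed (0.728% of all genes rose). The median of that list was 0.08. The hypoxia-inducible factor subunits Epas1 (9.13, 10.4 and 9.86 CPM against 20.2, 17.6 and 20.05 CPM; 0.98, SE 0.22, adjusted p = 0.046) and Hif3a (1.25, 2.21 and 1.19 CPM against 7.53, 3.57 and 6.80 CPM; 1.94, SE 0.43, adjusted p = 0.044) rose. Hif1a, picked after its value was seen, was 0.78 (SE 0.19, adjusted p = 0.056). Of the 14 tested genes of the hypoxia list 9 had positive values and 1, Epas1, passed (0.728% of all genes rose). Its median was 0.21, but 0.10 without PBS replicate 1, 0.34 without PBS replicate 2, 0.02 without 120 min replicate 1 and 0.02 with the leukocyte level in the fit. From 60 to 120 min Angptl4 rose by 1.71 (SE 0.31, adjusted p = 0.027), Fgfr4 by 1.45 (SE 0.30, adjusted p = 0.039) and Epas1 by 0.97 (SE 0.22, adjusted p = 0.048).

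**Figure D4:**
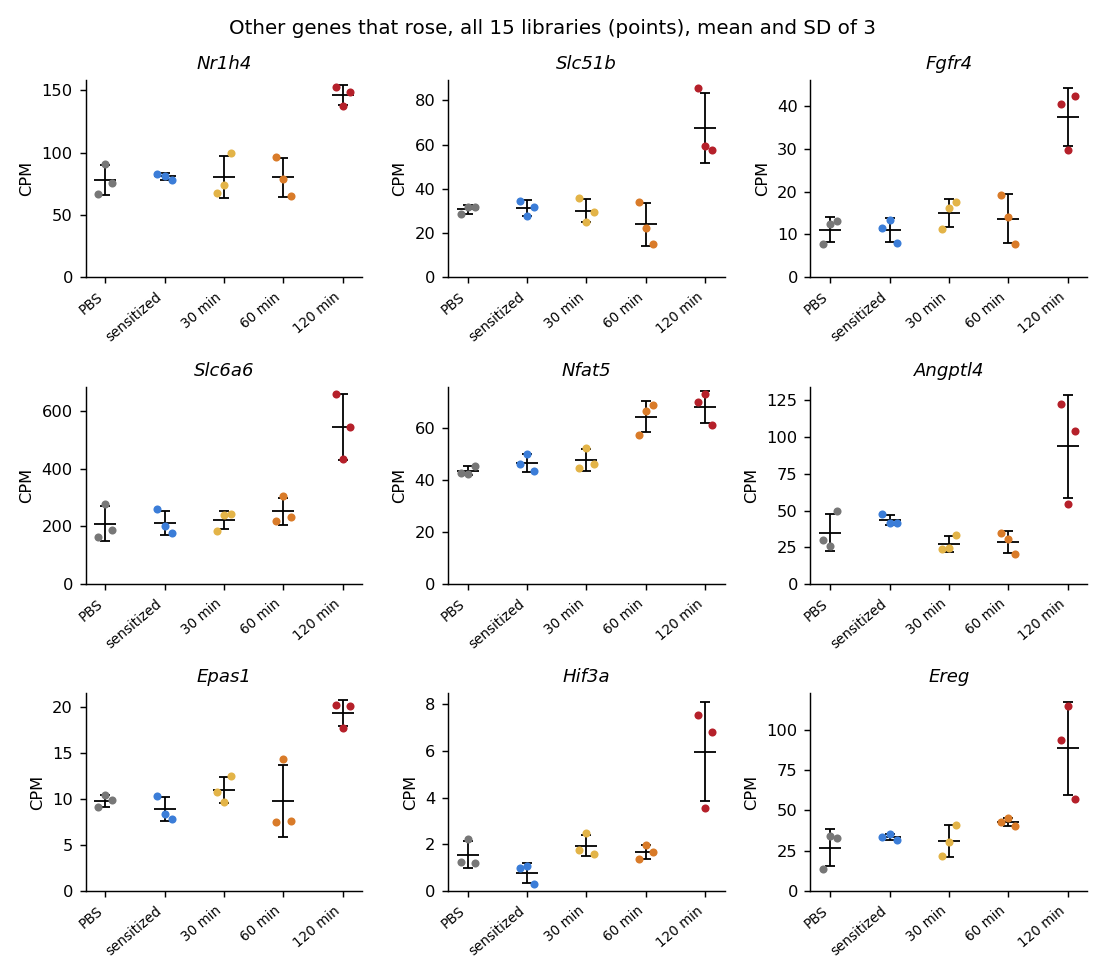
CPM of 9 further genes that rose is shown for each of the 15 libraries by group, with bars at the mean and SD of 3 and axes that start at 0. In all 9 panels every 120 min library is above every PBS library, and for Nfat5 the 60 and 120 min libraries overlap.

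The change with the smallest adjusted p among rises was that of Pgap1, which remodels the lipid anchor of GPI-linked proteins: it was at 21.6, 21.3 and 23.2 CPM in PBS mice and at 49.1, 50.8 and 55.9 CPM at 120 min. It rose by 1.24 (SE 0.15, edgeR adjusted p = 0.0025), and by 1.17 to 1.26 with 1 library left out, passing each time. Fam43a, at 2.06, 3.4 and 2.37 CPM against 11.3, 12.6 and 7.88 CPM, had the largest rise named by the rule on levels (2.02, SE 0.29, adjusted p = 0.0072). The atypical MAP kinase Mapk6 (146, 272 and 212 CPM against 490, 506 and 450 CPM) rose by 1.199 (SE 0.20, adjusted p = 0.016). The linker histone Hist1h1d (1.40, SE 0.28) and Akp3, an intestinal alkaline phosphatase (1.37, SE 0.31), also rose; Akp3 was 0.74 with the leukocyte level in the fit. Apobec1, the editing enzyme of apolipoprotein B mRNA, was at 33.3, 44.9 and 34.8 CPM against 87.2, 81.5 and 90.2 CPM (a rise of 1.196, SE 0.16, adjusted p = 0.0052), and Rflnb, a regulator of filamin, rose by 1.15 (SE 0.16, adjusted p = 0.0052). Apobec1, Rflnb and 2 genes under 2 CPM, Prkag3 (a rise of 2.40, SE 0.51) and Cyp2c70 (a rise of 2.20, SE 0.45), were picked after their values were seen. The homeobox factor Cdx1 (109, 107 and 105 CPM against 164, 142 and 192 CPM) rose by 0.63 (SE 0.12, edgeR adjusted p = 0.028). It was the only member of the epithelial identity list (12 tested, median 0.24) to pass, where 0.728% of all genes rose.

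Fam214a was at 9.40, 6.75 and 7.12 CPM in PBS mice and at 2.87, 2.13 and 1.62 CPM at 120 min, a fall of 1.81 on the log2 scale (SE 0.24, edgeR adjusted p = 0.0052) that passed with each of the 6 libraries left out (−2.07 to −1.63). With the leukocyte level in the fit it was −1.43 (adjusted p = 0.16). Parp11, an ADP-ribosyltransferase, was at 5.43, 3.86 and 4.59 CPM against 1.41, 1.60 and 2.07 CPM (−1.44, SE 0.27, adjusted p = 0.027). The DNA glycosylase Neil1 (−1.35, SE 0.27), Rfesd (−1.36, SE 0.25) and the Rab exchange factor Dennd4b (−1.62, SE 0.34) fell too, and Dennd4b was −0.79 with the leukocyte level in the fit. The fatty acid hydroxylase Cyp2u1, picked after its value was seen, was at 37.5, 40.7 and 43.1 CPM against 21.9, 21.2 and 18.1 CPM. It fell by 0.99 (SE 0.14, adjusted p = 0.0068) and passed in 5 of the 6 fits with a library left out. Nfkb2, a subunit of the noncanonical NF-κB pathway, was at 47.4, 47.4 and 52.7 CPM against 34.3, 35.9 and 27.2 CPM. It fell by 0.60 (SE 0.14, edgeR adjusted p = 0.049). It was the only one of 23 inflammatory genes that passed, where 0.448% of all genes fell.

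Genes of the secretory lineages had mostly negative values, and none of their list members passed. All 13 goblet genes were negative (median −0.73), as were 12 of 13 Paneth genes (median −0.95), 9 of 9 tuft genes (median −1.31) and 14 of 16 enteroendocrine genes (median −0.71). In edgeR 0 members of these 4 lists passed, and 7, 9, 3 and 2 had an unadjusted p under 0.05. Of all 14968 genes tested 2819 had such a p. In the goblet list the transcription factor Spdef was at 58.0, 35.8 and 43.9 CPM in PBS mice and at 24.1, 22.7 and 36.2 CPM at 120 min (−0.73, SE 0.20, adjusted p = 0.078), and the chemokine Ccl6 at 222, 131 and 134 CPM against 97.6, 95.0 and 94.4 CPM (−0.76, SE 0.22, adjusted p = 0.089). PBS replicate 1 had the highest level of each, and without it the goblet median was −0.29. In the Paneth list the defensin Defa30 was −0.97 (SE 0.27, adjusted p = 0.083), the protease Mmp7, which activates defensins, −1.21 (SE 0.33, 0.086) and the lectin Itln1 −0.95 (SE 0.27, 0.086). Defa3, a defensin outside that list and picked after its value was seen, fell by 0.997 (SE 0.23, adjusted p = 0.047); reads of near-identical α-defensin copies can be split between them, so the values of single copies are uncertain. Somatostatin (Sst) went against its list, at 14.2, 7.88 and 12.9 CPM against 28.7, 17.5 and 18.5 CPM (0.89, SE 0.24, adjusted p = 0.077). Sst was already above every PBS library in the sensitized controls (0.91 against PBS mice, SE 0.24), though it did not pass there. At 120 min against the sensitized controls Sst was −0.03 (SE 0.24, edgeR adjusted p = 0.97). The tuft list includes genes that leukocytes also express, such as Alox5ap (−1.97, SE 0.63, adjusted p = 0.12), and its median was −0.35 with the leukocyte level in the fit.

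**Figure D5:**
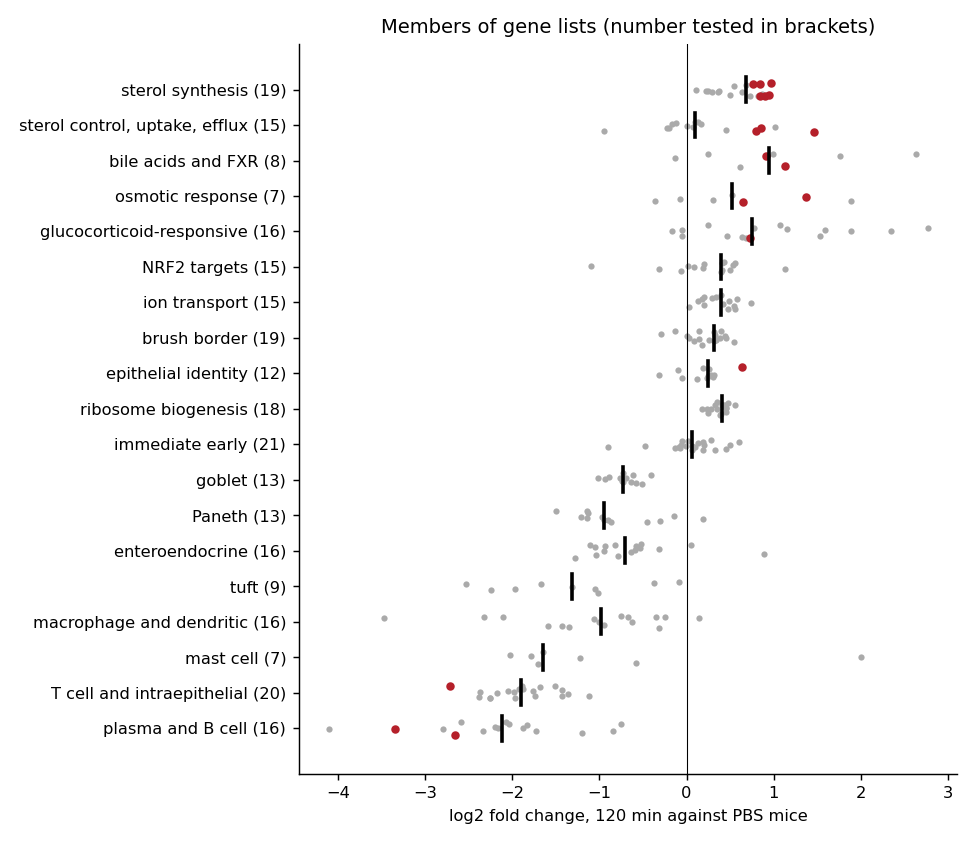
Each point is the log2 fold change (120 min against PBS mice) of a tested member of the gene list named on the y axis, red where it passed the test, and black bars mark list medians. The medians run from −2.12 for plasma and B cell genes to 0.95 for bile acid genes, and the sterol synthesis list holds 6 of the red points.

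Allergy and early response genes showed little that passed. The alarmin Il33 was at 14.0, 32.7 and 16.3 CPM in PBS mice and at 45.6, 24.3 and 24.8 CPM at 120 min (0.59, SE 0.45, edgeR adjusted p = 0.51). The mast cell protease Mcpt1 was at 13.2, 3.63 and 10.1 CPM against 3.25, 2.13 and 1.22 CPM (−2.03, SE 0.75, adjusted p = 0.18), and its groups did not overlap. Of 7 tested mast cell genes 0 passed in edgeR (4 with an unadjusted p under 0.05) and 6 were negative. Their median was −1.65, and −1.08 without PBS replicate 1 or −0.63 with the leukocyte level in the fit. Hdc, which makes histamine, was the positive one, at 0.217, 0.681 and 0.413 CPM against 1.93, 2.13 and 1.26 CPM (2.01, SE 0.48, adjusted p = 0.055). The immediate early genes Fos (0.06, SE 0.17, adjusted p = 0.88) and Egr1 (−0.14, SE 0.18, adjusted p = 0.73) overlapped between groups, at 1349 to 1565 and 1168 to 1512 CPM in PBS mice. The direction of Fos changed with upper quartile scaling (−0.01) and with the leukocyte level in the fit (−0.22). None of 21 immediate early and 10 type 2 genes tested passed in edgeR (4 and 1 with an unadjusted p under 0.05). Of all 14968 genes tested 2819 had such a p, so these counts are not set apart from the background.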

How the data were processed

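Gene expression was measured by RNA sequencing in 15 libraries of jejunal epithelium, 3 in each of 5 groups taken from the labels. Per the submitters' processing notes, the tools were cutadapt 1.18 and Salmon 1.2.1 and the build was mm10; which transcript annotation release the authors used was not given. As the file headers show, the deposited tables give an estimated count and a TPM for each of 139058 transcripts, both made by the authors per the file headers, with the length and effective length in bases; TPM served only as a weight for effective lengths. Estimated counts were summed per gene with GENCODE M21 (GRCm38), with transcript versions ignored: 137943 transcripts matched and 1115, with 0.374% to 0.602% of the counts, did not. Sums were rounded to whole numbers. Salmon divides reads among near-identical transcripts, and strand was not given, so near-identical and overlapping genes are uncertain.

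Of 28797 genes with any count, 14968 passed filterByExpr. After TMM scaling, edgeR 4.0.16 (robust quasi-likelihood test, R 4.3.3) was fitted with a mean per group over all 15 libraries, with 10 residual degrees of freedom and a common biological coefficient of variation of 0.26. Adjustment was by Benjamini-Hochberg across the 14968, and a gene passed under 0.05. Log2 CPM used a prior count of 2. Alternatives used DESeq2 1.42.0, limma 3.58.1, other scalings and filters, a transcript length offset and fits without each replicate. The code was tested on simulated data. Python 3.11.15 ran pandas 2.3.3 for tables and matplotlib 3.10.9 for figures, with numpy 2.4.6.

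Named genes were the 12 largest rises and 12 largest falls among passing genes that averaged 2 CPM or more and whose groups did not overlap, without numbered gene models, receptor segments and pseudogenes; passing members of 50 gene lists, up to 8 a list by p; up to 4 members where none passed; and Il33, Mcpt1, Fos and Egr1. Some genes that this rule names are not reported here; they stay in the fit and in the counts of lists. The comparison, the lists and this rule were chosen with earlier results of these data known, so lists are described by counts and medians and not tested.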

Additional observations from a re-analysis of the deposited data

Results flagged for a closer look

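Of the 37 genes named by the rule and reported here that changed at 120 min against PBS mice, this change differed from that at 60 min for 14. Of all genes tested 1.12% passed between 120 and 60 min. The test was edgeR's test of 120 against 60 min (10 residual degrees of freedom, 3 libraries against 3). The PBS mice are common to both changes and cancel. The 3 libraries at 120 min enter both tests, and the genes were named for their values in them, so passing both is partly built in. A fit of the 120 and 60 min libraries alone called 0 genes. Among sterol genes the difference in log2 change (120 min minus 60 min) was 0.95 for Msmo1 (adjusted p = 0.019), 0.66 for Fdft1 (0.026), 0.85 for Cyp51 (0.019) and 1.03 for Lss (0.021). In bile acid genes it was 0.87 for Nr1h4 (0.025) and 1.49 for Slc51b (0.019). It was 1.45 for Fgfr4 (0.039), 1.71 for Angptl4 (0.027), 1.11 for Slc6a6 (0.030), 0.82 for Pgap1 (0.022), 0.57 for Cdx1 (0.039) and 0.97 for Epas1 (0.048). It was −1.33 for Fam214a (0.024) and −1.40 for Parp11 (0.028). Genes named outside the rule passed both tests too: Apobec1 (1.08, 0.019), Rflnb (0.82, 0.027), Cyp2u1 (−0.85, 0.019), Soat1 (−0.97, 0.026), Defa3 (−1.16, 0.028) and Ighv4-1 (−2.14, 0.021). The calls for 120 against 60 min numbered 0 without 120 min replicate 1 or 3, 2 without 60 min replicate 2 or 3, 298 without 120 min replicate 2 and 1151 without 60 min replicate 1. In edgeR, single far-off libraries were checked only by leaving each out.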

How the results depend on the processing

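All 176 genes that passed at 120 min against PBS mice kept their direction under each alternative in which they were tested. The count of 176 was 319 with no filter on low counts (180 higher, 139 lower), 927 with DESeq2 (453 higher, 474 lower), 44 with a transcript length offset (30 higher, 14 lower) and 0 with the leukocyte level as a covariate (1427 with an unadjusted p under 0.05 in edgeR). Upper quartile scaling gave 196 (71 higher, 125 lower), and a fit of the 6 libraries alone 248 (93 higher, 155 lower). The other settings gave 163 to 178. Leaving out a replicate gave 5 to 116 calls, 1 to 62 higher and 3 to 54 lower. Sensitized controls against PBS mice gave 7 calls with DESeq2 and 0 in every other fit. For 120 min against sensitized controls, DESeq2 gave 755, the length offset 34, and leaving out a replicate 7 to 240. For 120 against 60 min, no filter gave 279, DESeq2 881, the length offset 46, the fit of the 6 libraries alone 0 (1875 with an unadjusted p under 0.05), and leaving out a replicate 0 to 1151. Fos was −0.013 with upper quartile scaling and −0.22 with the leukocyte covariate. The cause of these differences was not tested. Sterol synthesis genes had a median of 0.40 to 0.83 over all settings and T cell genes −2.41 to −0.10. With the leukocyte covariate the medians of plasma and B cell genes (0.17) and macrophage genes (0.31), which enter that covariate, turned positive. No paired analysis was possible because the titles of the libraries carry no shared replicate numbers.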

Other observations

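All 18 tested ribosome biogenesis genes had positive values, from 0.17 to 0.55 with a median of 0.40, and 0 passed in edgeR (7 with an unadjusted p under 0.05). Utp20, a factor of the small subunit processome, was at 25.9, 38.5 and 30.7 CPM in PBS mice and at 39.8, 41.3 and 58.4 CPM at 120 min (0.55, SE 0.18, adjusted p = 0.12). Nucleolin (Ncl) was at 380, 432 and 380 CPM against 478, 462 and 714 CPM (0.47, SE 0.17, adjusted p = 0.15). The highest value of both was in 120 min replicate 3, which had the lowest leukocyte level, and the median of the list was 0.02 with that level in the fit. Ribosomal protein genes were positive in 18 of 18, with a median of 0.18, and 0 passed in edgeR (1 with an unadjusted p under 0.05). Of all 14968 genes tested 2819 had such a p.

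Nuclear and mitochondrial genes of oxidative phosphorylation had opposite signs. The 18 nuclear genes tested were all positive, and 0 passed in edgeR (1 with an unadjusted p under 0.05, against 2819 of all 14968 genes). Their median was 0.15, but 0.07 without 120 min replicate 1 and with upper quartile scaling. An example is Cyc1 of complex III at 255, 251 and 254 CPM in PBS mice and 325, 281 and 326 CPM at 120 min (0.29, SE 0.11, edgeR adjusted p = 0.16). The 13 mitochondrially encoded genes were all negative, with a median of −0.35, and the groups overlapped for each of them; the highest mitochondrial share of the 6 libraries was in PBS replicate 1. With the leukocyte level in the fit the median of the mitochondrially encoded genes was 0.25.

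Of 15 tested NRF2 target genes 12 were positive (median 0.39) and 0 passed in edgeR (9 with an unadjusted p under 0.05, against 2819 of all 14968 genes). The glutathione synthesis enzyme Gclc was at 46.1, 77.0 and 49.1 CPM in PBS mice and at 172, 80.1 and 124 CPM at 120 min (1.13, SE 0.32, adjusted p = 0.092), and the thioredoxin reductase Txnrd1 at 191, 235 and 222 CPM against 320, 302 and 294 CPM (0.50, SE 0.14, adjusted p = 0.089). The median was 0.17 without 120 min replicate 3. All 15 tested ion transport genes were positive (median 0.40), with the bicarbonate transporter Slc4a4 at 83.0, 115 and 96.1 CPM against 148, 134 and 129 CPM (0.48, SE 0.17, adjusted p = 0.15).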
